A study of Bos taurus with 9 samples.

Results

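H3K27ac hotspot megabases are the stretches of 1 Mb in which H3K27ac peaks lay most densely in rumen epithelial tissue before weaning. Each autosome was cut into bins of 1 Mb from position 1 on the cattle assembly UMD3.1.1, and a bin was kept when 120 or more peaks of the H3K27ac list before weaning started in it. This rule kept 57 of 2526 autosomal bins (2.26%). All peaks of the 8 deposited lists that started in these bins are described, 14835 of 130580 peaks (11.4%), and 57.5% of them belonged to the list that chose the bins.

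The lists came from chromatin immunoprecipitation followed by sequencing (ChIP-seq) of rumen epithelial tissue from Holstein calves, a dairy breed, collected before and after weaning. There was 1 library for each of 4 targets at each time point, namely H3K9me3, H3K9ac, H3K27ac and RNA polymerase II (RNA pol II), and 1 input library, chromatin sequenced without an antibody, that served all 8 ChIP libraries. Neither the age or number of the calves nor any pooling is given in the labels, and no genotype or further treatment is named. By the labels, both libraries of a target were run on the same lane, except that H3K9me3 before weaning was on lane 2 and H3K9me3 after weaning on lane 1. For H3K9me3, lane and time point therefore cannot be told apart. For RNA pol II the time points follow the labels, while the text of the study assigns the smaller of both lists to the tissue before weaning. Every direction given for RNA pol II rests on the labels. Gene positions on this assembly were not used here, so the labelled tissue was not checked against marker genes and hotspots are named by position.

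Acetylation of histone H3 at lysine 27 (H3K27ac) marks active enhancers and promoters, and acetylation at lysine 9 (H3K9ac) is found mainly at active promoters. Many H3K27ac peaks close together are typical of gene-rich chromatin and of large enhancer clusters at genes that define a tissue. RNA pol II transcribes protein-coding genes and its peaks gather where transcription starts or pauses, whereas trimethylation of lysine 9 (H3K9me3) marks repressed heterochromatin and silenced repeats. The rumen of a calf matures around weaning, when the diet changes from milk to solid feed and fermentation products reach the epithelium.

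A peak is an interval that the caller found to be enriched over the input, and the lists give its start and end only, without a height. No comparison here has a replicate, so none was tested. Intervals in parentheses are 95% intervals (Wilson's for a share, Newcombe's for a difference of shares, and on the log scale for a ratio of counts) that cover counting error only, with peaks counted as independent although neighbouring peaks are not.

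The 57 hotspots lay on 19 of 29 autosomes. Chromosome 19 held 10 of them, chromosomes 7 and 18 held 5 each, and chromosomes 3, 5 and 11 held 4 each. On chromosome 19, one of the shorter autosomes, 37.1% of the 4281 autosomal H3K27ac peaks before weaning of that chromosome started in a hotspot, against 24.4% on chromosome 29 and 22.0% on chromosome 18. No hotspot was found on chromosomes 4, 6, 9, 12, 14, 17, 21, 24, 26 and 27. The median distance from a hotspot to the nearer chromosome end was 13.0 Mb, with 21 hotspots within 10 Mb of an end. These values were not set against all autosomal bins and only describe where the hotspots lay.

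Most hotspots had no other hotspot in an adjacent bin, and 19 of the 57 lay in runs of 2 or more. Adjacent bins that were not hotspots held up to 118 H3K27ac peaks before weaning, so this depends on the threshold. The 57 bins formed 46 runs of adjacent bins, of which 38 were single bins and 8 held 2 or more. Runs of 3 Mb were found at chr3:14000001-17000000, chr18:52000001-55000000 and chr19:54000001-57000000, with 417, 454 and 478 H3K27ac peaks before weaning. In the 90 bins next to hotspots the median was 59 H3K27ac peaks before weaning, lower by the construction of the rule than in the hotspots and above the median of 17 over all autosomal bins.

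The counts that chose the bins ranged from 121 to 240 H3K27ac peaks, with a median of 144. Just inside the threshold, chr7:64000001-65000000, chr18:52000001-53000000 and chr23:31000001-32000000 held 121 peaks each. Just outside it, chr28:28000001-29000000 held 119 and chr18:55000001-56000000 and chr25:3000001-4000000 held 118 each. The border is thus a matter of 1 to 3 peaks, and a threshold of 100 kept 117 bins and one of 140 kept 33.

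The fullest hotspot was chr10:80000001-81000000, with 240 H3K27ac peaks before and 99 after weaning. It also held the most H3K9ac peaks of all hotspots at both times, 82 before and 18 after weaning, together with 6 and 0 RNA pol II peaks. Next came chr11:25000001-26000000, with 234 and 112 H3K27ac peaks, the latter the highest count after weaning. Its H3K9ac peaks numbered 58 and 11. RNA pol II was sparse there, with 2 peaks before weaning and 0 after, against a median of 5 before weaning over the hotspots.

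Of the 5 fullest hotspots, 3 lay on chromosome 19. At chr19:27000001-28000000 there were 201 H3K27ac peaks before and 77 after weaning, 64 and 3 H3K9ac peaks, and 15 and 1 RNA pol II peaks. With chr19:43000001-44000000 (175 H3K27ac peaks before weaning, 15 RNA pol II peaks before and 1 after) this bin held the most RNA pol II peaks before weaning of all hotspots, rank 7 among all autosomal bins. At chr19:23000001-24000000 there were 195 and 65 H3K27ac peaks, and at chr19:56000001-57000000 there were 193 and 63. The adjacent bin chr19:28000001-29000000 added 126 and 48.

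The other hotspots among the fullest had nearly equal H3K27ac counts before weaning by their selection. At chr28:7000001-8000000, there were 177 H3K27ac peaks before and 70 after weaning, and 69 and 1 H3K9ac peaks. At chr20:4000001-5000000, with the same 177 H3K27ac peaks before weaning and 52 after, H3K9ac had 36 and 2. At chr18:53000001-54000000, H3K27ac had 182 and 55 peaks and H3K9ac 34 and 0. At chr2:126000001-127000000 there were 184 and 88 H3K27ac peaks and 35 and 5 H3K9ac peaks. In each of these 4 bins a smaller share of the H3K9ac count than of the H3K27ac count was left after weaning. The same order held over all hotspots (0.115 against 0.425) and elsewhere (0.153 against 0.411), so it is not particular to these bins.

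**Figure D1:**
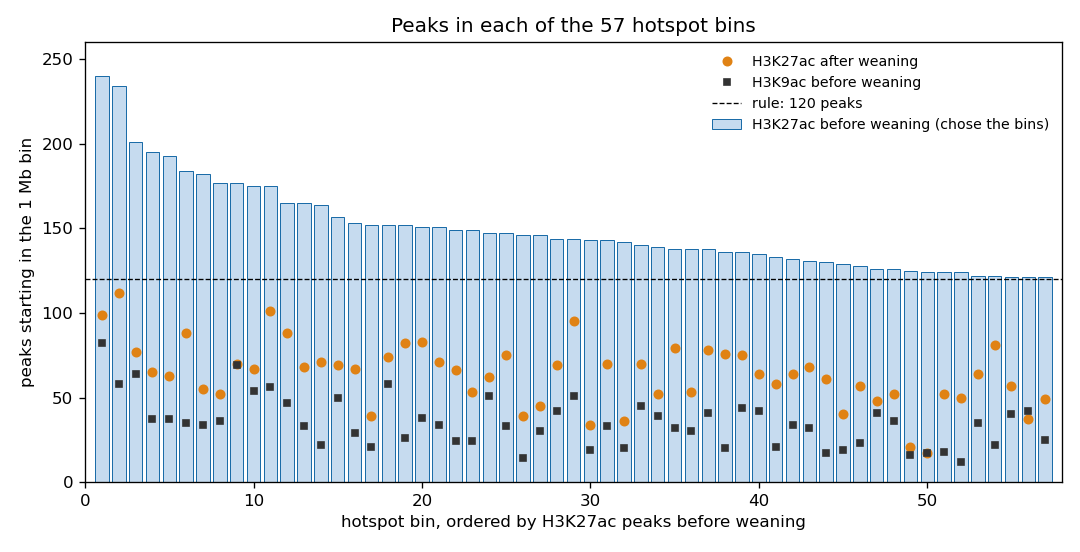
Peaks that started in each of the 57 hotspot bins (y axis, peaks per 1 Mb bin), with bins ordered along the x axis by H3K27ac peaks before weaning (bars, the list that chose the bins, from 240 down to 121). Orange circles give H3K27ac after weaning (17 to 112), which lie below the bar in every bin, and dark squares give H3K9ac before weaning (12 to 82).

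The active marks that did not choose the bins were also dense in them. Before weaning, 2004 of 14314 autosomal H3K9ac peaks (14.0%) and 291 of 2034 RNA pol II peaks (14.3%) started in hotspots, which make up 2.27% of the autosomal length. That is 35.2 H3K9ac peaks per Mb against 5.02 elsewhere, a ratio of 7.004 (6.68 to 7.34), and 5.11 RNA pol II peaks per Mb against 0.711, a ratio of 7.18 (6.34 to 8.13). After weaning, H3K9ac was 5.24 times as dense as elsewhere (4.57 to 6.01), with 230 peaks, and H3K27ac 5.87 times (5.67 to 6.08), with 3628 peaks. All lists share tissue and input, and dense peaks of 1 target at a place are measured with the others there.

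The repressive mark and RNA pol II after weaning departed from this. H3K9me3 had 45 peaks in hotspots before weaning, a density ratio of 0.851 (0.634 to 1.14), and 89 after, a ratio of 0.957 (0.775 to 1.18). RNA pol II after weaning had 14 peaks, a ratio of 0.850 (0.501 to 1.44). These 3 intervals include 1. With peaks merged within 1 kb in the same bins, the H3K9me3 ratios were nearer to 1, at 0.954 (0.682 to 1.33) before and 0.996 (0.787 to 1.26) after weaning, whereas the choices of bins given next lowered them. With bin borders shifted by 0.5 Mb the H3K9me3 ratios were 0.723 (0.527 to 0.992) before and 0.789 (0.628 to 0.992) after weaning, and at a threshold of 100 they were 0.543 (0.420 to 0.702) and 0.687 (0.578 to 0.817). The lowest were 0.260 (0.130 to 0.520) and 0.591 (0.418 to 0.838) at a threshold of 140. RNA pol II after weaning moved in both directions, with 1.02 (0.629 to 1.65) for shifted borders, 1.28 (0.752 to 2.18) with peaks merged within 1 kb and 0.552 (0.350 to 0.870) at a threshold of 100. A pair of bins held much of the H3K9me3, and without chr18:52000001-53000000 and chr19:35000001-36000000, a choice made after the values were seen and for their H3K9me3, which lowers the ratios by construction, they were 0.486 (0.328 to 0.721) before and 0.642 (0.495 to 0.831) after weaning, and that of RNA pol II after weaning was 0.499 (0.249 to 1.002).

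**Figure D2:**
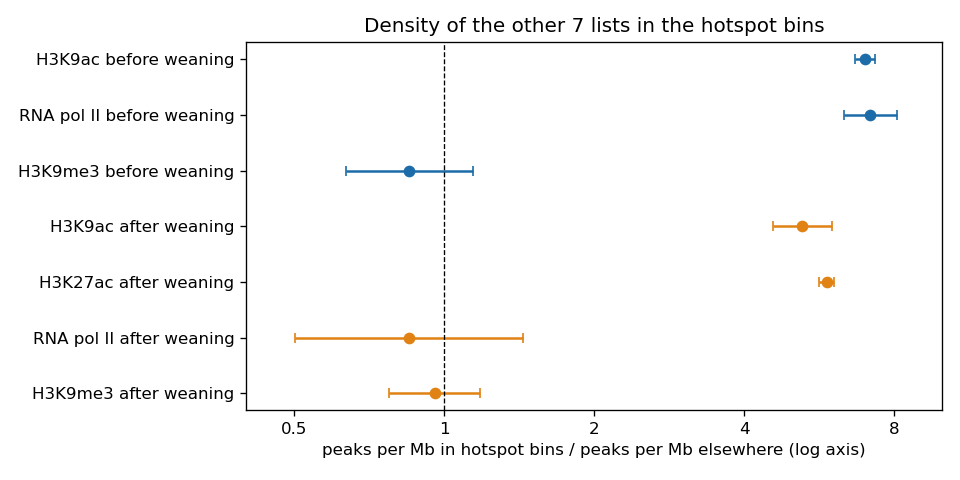
Peaks per Mb in the 57 hotspot bins divided by peaks per Mb in the other autosomal bins (x axis, log scale) for the 7 lists that did not choose the bins, with 95% intervals for counting error (blue before weaning, orange after). The 4 acetylation and RNA pol II lists at the right lie between 5.24 and 7.18, and both H3K9me3 lists and RNA pol II after weaning lie near 1.

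Among single bins, the ranking by H3K27ac before weaning was shared in part by the other acetylation lists and by RNA pol II before weaning. Ranking all 2526 bins by H3K9ac before weaning, 38 hotspots stood among the 59 bins that reach rank 57 with ties. For H3K27ac after weaning, 35 hotspots stood among 60 such bins, and for RNA pol II before weaning 31 among 88. It was 21 among 79 for H3K9ac after weaning. For RNA pol II after weaning the number was only 2 among 78, and for either H3K9me3 list it was also 2. Within the 57 hotspots, H3K9ac before weaning ran from 12 to 82 peaks (median 34), with the fewest at chr8:112000001-113000000, and RNA pol II from 0 to 15 (median 5), with none at chr1:146000001-147000000, chr7:64000001-65000000 and chr8:112000001-113000000. Across the 57 bins the number of H3K27ac peaks before weaning went with that of H3K9ac before weaning (Spearman rho 0.453, Pearson r 0.611) and of H3K27ac after weaning (0.476 and 0.541). These are descriptions over bins that share libraries and were selected on 1 of the counts.

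H3K27ac peaks in the hotspots were slightly wider than elsewhere. The median width was 377 bp (370 to 385) in hotspots and 340 bp (337 to 341) elsewhere before weaning, and 300.5 bp (294 to 306) and 289 bp (287 to 291) after. H3K9ac peaks had medians of 275 and 265 bp before weaning and 251 and 242 bp after. RNA pol II peaks before weaning had medians of 271 and 272 bp. H3K27ac peaks covered 7.85% of the hotspots before weaning and 2.37% after, against 1.22% and 0.379% elsewhere. The widest H3K27ac peak of the hotspots spanned 6135 bp at chr18:48668515-48674649 and touched 6 H3K9ac peaks and 1 RNA pol II peak before weaning. After weaning it was matched by 6 separate H3K27ac peaks, 0 H3K9ac peaks and 0 RNA pol II peaks.

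H3K27ac peaks of the hotspots came in tight chains. The median gap between neighbouring peaks was 824 bp, against 1636 bp elsewhere. When peaks with gaps of up to 10 kb were stitched, clusters of 10 or more peaks held 55.0% of the peaks of the hotspots and 24.2% of those elsewhere, and after weaning 25.2% and 10.3%. The rule favours such chains, since it asks for many peaks in little space.

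The longest stitched cluster ran over 198.3 kb at chr11:25641456-25839751 and held 88 H3K27ac peaks before and 34 after weaning. It held 25 H3K9ac peaks before and 5 after weaning and no peak of RNA pol II or H3K9me3 at either time. The cluster at chr20:4414403-4578229 also held 88 H3K27ac peaks before weaning and 26 after, with 23 and 1 H3K9ac peaks and again no RNA pol II. The third was chr10:80646701-80771995, with 60 and 36 H3K27ac peaks and 18 and 10 H3K9ac peaks. All 3 were long acetylated stretches without an RNA pol II peak. The next cluster, at chr3:20141038-20253136, held 56 and 40 H3K27ac peaks and 5 RNA pol II peaks before weaning.

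After weaning the active marks were fewer in the hotspots and the repressive mark was more frequent. H3K27ac had 8534 peaks before and 3628 after, a ratio of 0.425 (0.409 to 0.442), against 0.411 (0.406 to 0.417) elsewhere. H3K9ac had 2004 and 230, a ratio of 0.115 (0.1001 to 0.132), against 0.153 (0.146 to 0.161) elsewhere. Both had fewer peaks after weaning in 57 of 57 bins. The ratio of H3K27ac peaks per bin ran from 0.137 to 0.664 (median 0.436), and that of H3K9ac from 0 to 0.545 (median 0.0909). Since the bins were selected on many H3K27ac peaks before weaning, their ratio for this mark is a description. By covered length, the H3K27ac ratios were lower and almost alike, 0.302 in hotspots and 0.310 elsewhere.

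Of the 4 targets, RNA pol II differed most between hotspots and the rest. Its peaks numbered 291 before and 14 after weaning in hotspots, a ratio of 0.0481 (0.0281 to 0.0823), against 0.407 (0.373 to 0.444) elsewhere. Without the dense cluster of RNA pol II and H3K9me3 peaks at chr17:50000001-52000000, left out after the data had been seen, the ratio elsewhere was 0.320 (0.290 to 0.353). Fewer RNA pol II peaks were listed after weaning in 53 of 57 hotspots and more in 0. A low number after weaning was also seen next to the hotspots in rank, where the 333 bins with 60 or more but under 120 H3K27ac peaks before weaning held 593 RNA pol II peaks before and 56 after weaning.

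H3K9me3 peaks of the hotspots numbered 45 before weaning and 89 after it, a ratio of 1.98 (1.38 to 2.83), against 1.76 (1.67 to 1.85) elsewhere. More peaks were listed after weaning in 29 hotspots and fewer in 2. The intervals of both ratios overlap, so a difference between hotspots and the rest was not detectable at these counts.

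**Figure D3:**
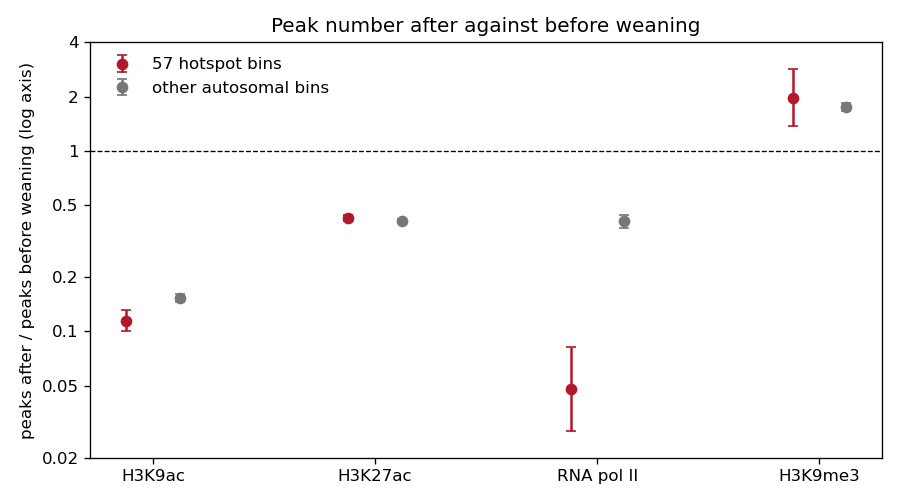
Number of peaks after weaning divided by the number before (y axis, log scale) for each target, in the 57 hotspot bins (red) and in the other autosomal bins (grey), with 95% intervals for counting error. RNA pol II stands apart, at 0.0481 in hotspots and 0.407 elsewhere, and by the labels only H3K9me3 lies above 1, whereas with the 2 RNA pol II lists in the turned order the RNA pol II ratios would be 20.8 in hotspots and 2.46 elsewhere.

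Of the 8534 H3K27ac peaks of the hotspots before weaning, 2724 were kept, that is, they shared at least 1 bp with an H3K27ac peak after weaning. The kept share was 31.9% (30.9 to 32.9), against 27.5% (27.2 to 27.9) elsewhere, 29.2% (28.7 to 29.8) in bins with 60 or more but under 120 peaks and 28.1% over all autosomes. The difference from elsewhere was 4.38 percentage points (3.34 to 5.43). H3K27ac peaks after weaning covered 2.37% of the hotspots and 0.379% elsewhere, so that more overlap arises by chance in hotspots, in every width class, and its part in this difference was not tested. Wide peaks were kept far more often than narrow ones, and hotspots held more wide peaks. Kept peaks of the hotspots had a median width of 629.5 bp and the others, called lost, 315 bp, and 45.9% of the lost peaks were under 300 bp wide.

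Within classes of width the hotspots were closer to the rest of the genome. Under 300 bp, 13.2% were kept in hotspots and 11.2% elsewhere, a difference of 2.00 points (0.788 to 3.30). From 300 to under 500 bp the shares were 25.4% and 23.2%, a difference of 2.20 points (0.418 to 4.06). From 500 to under 1000 bp they were 46.8% and 47.4%, and at 1000 bp or more 80.4% and 79.6%, with intervals of the difference that include 0 (-2.87 to 1.66 and -2.21 to 3.57 points). With a reciprocal overlap of 50% the difference from elsewhere was 1.63 points (0.812 to 2.47).

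**Figure D4:**
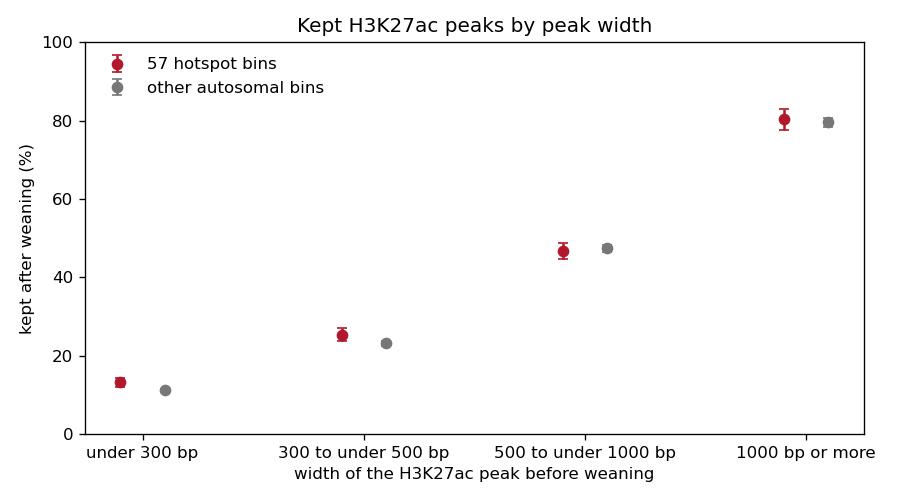
Share of H3K27ac peaks before weaning that were kept after weaning (y axis, percent) by the width of the peak before weaning, in the 57 hotspot bins (red) and the other autosomal bins (grey), with 95% Wilson intervals. Kept shares rise from 13.2% under 300 bp to 80.4% at 1000 bp or more in the hotspots, and the red and grey points of a class lie within 2.20 points of each other.

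Single hotspots differed widely in what they kept. The kept share ran from 8.06% to 55.7%, with a median of 32.4%. It was above the share elsewhere in 42 hotspots and below it in 15, and the 95% interval of the bin lay wholly above in 22 and wholly below in 5. The number of H3K27ac peaks in a hotspot had almost no relation to its kept share (Spearman rho 0.0675, Pearson r 0.0193 over 57 bins). The share touched by H3K9ac before weaning went with it weakly (0.4002 and 0.387), as did the median width (0.350 and 0.343).

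The highest kept share was found at chr5:26000001-27000000, where 68 of 122 peaks were kept (55.7%, 46.9 to 64.2). This bin had 81 H3K27ac peaks after weaning and the highest H3K9ac ratio of all hotspots, with 22 peaks before and 12 after. At chr3:14000001-15000000, 70 of 144 peaks were kept (48.6%, 40.6 to 56.7), with 51 and 12 H3K9ac peaks. At chr29:41000001-42000000, 59 of 136 were kept (43.4%, 35.3 to 51.8), and here H3K9ac had 44 peaks before and 4 after.

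At the other end, chr15:65000001-66000000 kept 10 of 124 peaks (8.06%, 4.44 to 14.2), with 17 H3K27ac peaks after weaning. At chr28:35000001-36000000, 15 of 125 were kept (12%, 7.41 to 18.9), with 21 H3K27ac peaks after weaning and 16 and 0 H3K9ac peaks. At chr13:78000001-79000000, 25 of 143 were kept (17.5%, 12.1 to 24.5), with 34 after weaning. These bins were also poor in H3K9ac before weaning, with 17, 16 and 19 peaks against a median of 34. Other bins with few H3K9ac peaks kept more. With 12 such peaks chr8:112000001-113000000 kept 29.8%, and chr5:26000001-27000000, with the highest kept share, had 22.

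**Figure D5:**
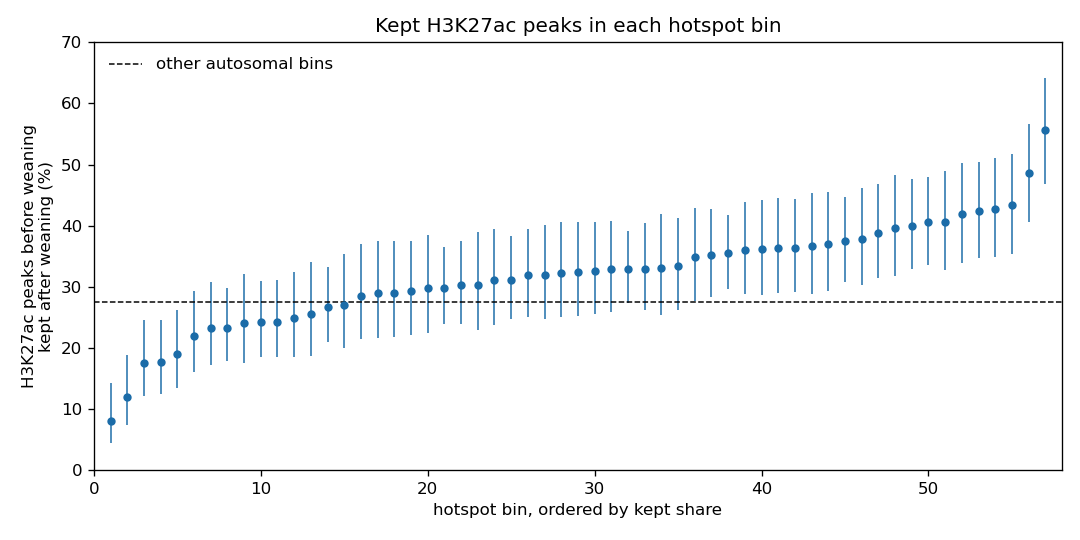
Share of H3K27ac peaks before weaning that were kept after weaning in each of the 57 hotspot bins (y axis, percent), ordered by that share along the x axis, with 95% Wilson intervals. The dashed line is the share in the other autosomal bins, 27.5%, and the points run from 8.06% to 55.7%.

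The fullest window of 100 kb held from 13.5% to 39.7% of the H3K27ac peaks of a bin (median 21.2%), and 40 hotspots had no empty window. Together the 57 fullest windows kept 33.3% of 1846 peaks (31.2 to 35.5), close to the 31.5% of 6688 peaks (30.4 to 32.7) in the rest of the hotspots. Fullest windows of different hotspots, picked here after their values were seen, were far apart in kept share. At chr5:26100001-26200000, 37 of 45 peaks were kept (82.2%, 68.7 to 90.7), with only 1 H3K9ac peak before weaning and 5 after. At chr19:43500001-43600000, 0 of 33 were kept, which allows a share of up to 9.09% by a limit of 3 counts (Wilson upper limit 10.4%), and 1 H3K27ac peak was listed there after weaning. At chr16:42100001-42200000 and chr15:65700001-65800000, 1 of 36 peaks was kept in each (2.78%, 0.492 to 14.2).

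Seen from the list after weaning, few hotspot peaks were new. Of 3628 H3K27ac peaks after weaning, 87.6% (86.5 to 88.6) lay on a peak before weaning, against 75.4% (74.9 to 75.9) elsewhere and 76.9% over all autosomes. More of a hotspot is covered before weaning by the rule itself, so a higher share is built in. The 450 gained peaks were narrow, with a median of 244 bp, and those on an earlier peak had 315 bp. The gained share ran from 0% to 35.3% per bin (median 11.6%).

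Kept and gained H3K9ac peaks were few. Of the 2004 H3K9ac peaks before weaning in hotspots, 123 were kept (6.14%, 5.17 to 7.27), against 6.68% elsewhere and 6.60% over all autosomes, a difference of -0.540 points (-1.61 to 0.675). Of the 230 H3K9ac peaks after weaning, 53.04% (46.6 to 59.4) lay on an earlier H3K9ac peak, against 43.2% elsewhere and 44.3% over all autosomes. Of the 108 that did not, 82 (75.9%) lay on an H3K27ac peak before weaning, against 583 of 1071 (54.4%) elsewhere, where H3K27ac covered less of the bins by the rule. The 5 hotspots with 10 or more H3K9ac peaks after weaning held 64 of the 230.

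Before weaning, most H3K9ac and RNA pol II peaks of the hotspots touched an H3K27ac peak. Of the H3K9ac peaks, 94.9% (93.9 to 95.8) touched an H3K27ac peak, against 89.2% elsewhere and 90.0% over all autosomes. Among RNA pol II peaks, 93.8% (90.4 to 96.1) touched H3K27ac, against 73.8% elsewhere and 76.6% over all autosomes, and 58.8% (53.03 to 64.3) touched H3K9ac, against 47.3% and 49.0%. Bins with 60 or more but under 120 H3K27ac peaks were like the hotspots for RNA pol II, with 95.3% on H3K27ac and 57.3% on H3K9ac. A chance overlap is larger where H3K27ac covers more of the bin, as it does here by the rule.

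In the other direction, 18.6% (17.8 to 19.4) of the H3K27ac peaks of the hotspots touched H3K9ac, against 15.1% elsewhere and 15.5% over all autosomes, a difference of 3.52 points (2.66 to 4.40). Within classes of width this difference was between 0.185 and 1.17 points below 1000 bp, with intervals that include 0, and 3.65 points (0.166 to 7.01) at 1000 bp or more. RNA pol II touched 2.98% (2.64 to 3.36), against 1.97% elsewhere and 2.09% over all autosomes. After weaning, 5.13% (4.46 to 5.89) of the H3K27ac peaks touched H3K9ac, against 4.81% elsewhere and 4.85% over all autosomes. The share per bin on H3K9ac before weaning ran from 7.53% at chr11:104000001-105000000 to 30.6% at chr23:31000001-32000000, and it went with the median width of the H3K27ac peaks (Spearman rho 0.655, Pearson r 0.641 over 57 bins).

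In hotspots and elsewhere alike, H3K27ac peaks that touched H3K9ac or RNA pol II were kept more often than those that touched neither. Peaks without H3K9ac or RNA pol II made up 80.5% of the H3K27ac peaks of the hotspots, and 23.5% of them (22.5 to 24.5) were kept, against 20.6% elsewhere. With H3K9ac alone 64.9% (62.4 to 67.4) were kept, against 62.6% elsewhere, and with RNA pol II alone 50% (38.9 to 61.1) of 74, against 56.9%. With both, 87.2% (81.6 to 91.3) of 180 were kept, against 94.96% (93.3 to 96.2) elsewhere. These classes also differed in width, from a median of 329 bp for H3K27ac alone to 1176.5 bp for peaks with both, and the part of width in the kept share of each class was not tested.

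Few RNA pol II peaks were kept. Of 291 hotspot peaks before weaning, 9 touched an RNA pol II peak after weaning (3.09%, 1.64 to 5.77). The share was 5.23% (3.71 to 7.32) in bins with 60 or more but under 120 H3K27ac peaks, 19.0% over all autosomes and 21.7% (19.8 to 23.7) elsewhere. That difference was -18.6 points (-21.1 to -15.3). From the list after weaning, 9 of 14 hotspot peaks (64.3%, 38.8 to 83.7) touched one before weaning, against 370 of 709 (52.2%, 48.5 to 55.8) elsewhere. The difference was then 12.1 points (-13.7 to 31.8), an interval that includes 0. A lower share in hotspots was thus seen from the list before weaning only, and the time points rest on the labels. Peaks on and off H3K27ac before weaning also differed by the direction of counting. On H3K27ac, 3 of 273 were kept in hotspots (1.10%, 0.374 to 3.18) and 51 of 1286 elsewhere (3.97%, 3.03 to 5.18), a difference of -2.87 points (-4.28 to -0.584). Off H3K27ac, 6 of 18 were kept in hotspots (33.3%, 16.3 to 56.3) and 327 of 457 elsewhere (71.6%, 67.3 to 75.5), a difference of -38.2 points (-55.7 to -14.9). RNA pol II peaks off H3K27ac, which were kept more often in both places, made up 18 of 291 in the hotspots and 457 of 1743 elsewhere. Counted from the list after weaning, 3 of 3 peaks on H3K27ac before weaning and 6 of 11 off it touched an earlier RNA pol II peak in hotspots, and 50 of 54 (92.6%, 82.4 to 97.1) and 320 of 655 (48.9%, 45.0 to 52.7) did elsewhere, the opposite order of on and off.

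Before weaning few RNA pol II peaks touched H3K9me3 in the hotspots, as in the next fullest bins, and after weaning most did in both. Before weaning it was 7 of the 291 (2.41%, 1.17 to 4.88), against 24.6% (22.6 to 26.7) elsewhere, 3.71% (2.46 to 5.55) in bins with 60 or more but under 120 H3K27ac peaks and 21.4% over all autosomes. After weaning 9 of the 14 did (64.3%, 38.8 to 83.7), against 87.0% elsewhere, 66.1% in those bins and 86.6% over all autosomes. Of these 14, 9 lay on an RNA pol II peak before weaning and 3 on H3K27ac before weaning, and 5 of them lay together in a stretch of 21.1 kb on chromosome 19. After weaning 7 of the 14 touched H3K9ac (50%, 26.8 to 73.2), against 37.5% elsewhere and 37.8% over all autosomes, and 5 touched H3K27ac (35.7%, 16.3 to 61.2), against 31.9% elsewhere and 31.95% over all autosomes. Both intervals include the share elsewhere.

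H3K27ac and H3K9me3 peaks did not meet in the hotspots before weaning. None of the 8534 H3K27ac peaks touched an H3K9me3 peak, which allows a share of up to 0.0352% by a limit of 3 counts, against 54 of 64617 elsewhere (0.0836%, 0.0641 to 0.109) and 0.0738% over all autosomes. In bins with 60 or more but under 120 H3K27ac peaks it was 8 of 27335 (0.0293%), and the difference of the hotspots from these bins was -0.0293 points (-0.0577 to 0.0180), an interval that includes 0. Counted from H3K9me3, 0 of 45 peaks in hotspots touched H3K27ac (Wilson upper limit 7.87%), against 54 of 2275 elsewhere (2.37%). The interval of that difference, -2.37 points (-3.08 to 5.51), includes 0 as well. The H3K9me3 peaks of the hotspots lay at a median of 13.2 kb from the nearest H3K27ac peak, the closest at 2189 bp, and those elsewhere at a median of 57.5 kb. A shorter distance in hotspots is built in, since the distance is to the list that chose them. After weaning 3 of the 89 H3K9me3 peaks touched an H3K27ac peak (3.37%, 1.15 to 9.45), against 5.62% elsewhere and 5.57% over all autosomes. Of the H3K9me3 peaks before weaning, 21 of 45 were kept (46.7%, 32.9 to 60.9), against 54.7% elsewhere and 54.5% over all autosomes.

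Part of the H3K9me3 within the hotspots lay in short stretches. The 7 stretches with 4 or more peaks over both lists, joined at gaps of up to 50 kb, held 27 of the 45 peaks before and 41 of the 89 after weaning. In 22 hotspots neither list had an H3K9me3 peak, 30 held 1 to 5 over both lists and 5 held more. At chr18:52000001-53000000 there were 11 peaks before and 18 after weaning, and at chr19:35000001-36000000 there were 9 and 13, together 44.4% of the H3K9me3 peaks of the hotspots before and 34.8% after weaning. On chromosome 19 all of them lay in 21.1 kb at chr19:35925279-35946402, with 4 RNA pol II peaks before weaning and 5 after, 4 H3K9ac peaks and 1 H3K27ac peak after weaning, and no acetylation peak before. On chromosome 18, the stretch chr18:52772851-52822791 held 10 and 7 H3K9me3 peaks and no H3K27ac peak before weaning, and chr18:52617575-52643164 held 0 and 5 with no peak of the other targets at either time. In the same bin, chr18:52402437-52484683 held 1 and 6 H3K9me3 peaks together with 4 H3K27ac peaks before weaning, and in the next bin chr18:53353742-53396325 held 1 and 3 with 3.

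Few hotspot sites were shared by many lists. When overlapping peaks of the 8 lists were merged, the hotspots held 9100 regions, of which 64.5% had a peak in 1 list only, against 71.0% elsewhere. Peaks of all 8 lists met in 0 of the 9100, which allows a share of up to 0.0330% by a limit of 3 counts, and in 29 of 76627 elsewhere (0.0378%). That limit is close to the share elsewhere, so no difference is read from it. The region with the most lists, 7, was chr18:52775905-52776935, 1031 bp wide, which lacked only H3K27ac before weaning. The region chr19:35934157-35935089 had 6 lists, both H3K9me3 lists and both RNA pol II lists among them. By contrast, chr5:104056812-104060416, 3605 bp wide, had 6 lists without H3K9me3, and it alone carried both acetylation marks and RNA pol II at both time points.

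Both acetylation marks were present at both time points at 128 regions in 46 of the 57 hotspots. These were 14.8% of the 862 such regions of the autosomes, whereas hotspots held 10.6% of all merged regions. Each such region needs an H3K27ac peak before weaning, the list that chose the bins, so a higher share is built in. Before weaning, hotspots held 14.0% of the autosomal H3K9ac peaks and 11.7% of the H3K27ac peaks. Of the 128, 20 had RNA pol II before weaning (15.6%, 10.3 to 22.9), against 148 of the 734 such regions elsewhere (20.2%, 17.4 to 23.2). After weaning 1 of them had it (0.781%, 0.138 to 4.29), against 35 elsewhere (4.77%, 3.45 to 6.56). H3K9me3 at either time was found at 0 of the 128, which allows a share of up to 2.34% by a limit of 3 counts, and at 35 of the 734 elsewhere (4.77%). Examples with RNA pol II before weaning were chr29:44274168-44278145 (3978 bp), chr23:17845507-17848861 (3355 bp) and chr3:14375215-14378079 (2865 bp).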

How the data were processed

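ChIP-seq libraries of rumen epithelial tissue were read at 75 nt. The authors discarded low-quality reads, aligned the rest with BWA to UMD3.1.1, kept unique alignments with fewer than 2 mismatches and called peaks with MACS2 against the shared input. The submitters' processing notes name Trim Galore 0.4.1 and UMD3.1. The deposited values are peak positions in bp (chromosome, start, end) for 8 lists, 1 per target and time point, with no score, and read depth was not used here. The lowest width is 200 bp when both ends are counted. Samples were grouped by target and time point from the labels. Peaks were assigned to bins of 1 Mb by their start, with the X chromosome and unplaced sequence left out. A peak touched another list when it shared at least 1 bp with it. The named bins were the 8 with the most H3K27ac peaks before weaning (ties included) and the 3 highest and 3 lowest in kept share. Fullest windows, stretches and regions were picked by rank or after their values were seen. The members and lists were chosen with earlier results of these data known. Overlap and interval functions were tested on simulated data. Alternatives were shifted bins, thresholds of 100 and 140, midpoints, merging within 1 kb, a reciprocal overlap of 50%, width limits, the middle class of bins, covered length, leaving out a bin and stitching at 5 kb. With 1 library per group no test was run. Python 3.11.15 with pandas 2.3.3, NumPy 2.4.6 and SciPy 1.17.1 was used.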

Additional observations from a re-analysis of the deposited data

Results flagged for a closer look

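By the labels, one target stood against the others. In the 57 hotspots the number of H3K9me3 peaks after weaning was 1.98 times that before, while the numbers of H3K9ac, H3K27ac and RNA pol II peaks were lower after weaning than before. This rests on the RNA pol II labels, since with its 2 lists in the turned order the RNA pol II ratio in hotspots would be 20.8 (12.2 to 35.5) and H3K9me3 would not be the one mark above 1. The difference between the targets was not tested, since each target had 1 library per time point. The H3K9me3 libraries alone were run on different lanes before and after weaning and a part of the lane in this rise cannot be told apart from that of the time point.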

How the results depend on the processing

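Of 159 values recomputed under an alternative, 96 stayed within the interval of the value reported or, for counts, within 1.5 times of it, 62 moved further and 1 whose interval excluded 0 changed sign. That value was the kept share of H3K27ac peaks, hotspots minus elsewhere, at 4.38 points for all peaks and -0.612 points (-2.87 to 1.66) for peaks of 500 to under 1000 bp. The same difference was 2.00 points under 300 bp, 2.20 from 300 to under 500 bp, 0.794 at 1000 bp or more, 2.88 for peaks wider than the list median, 2.70 against bins with 60 or more but under 120 peaks, 1.63 with a reciprocal overlap of 50%, 8.96 with peaks merged within 1 kb, 5.49 with bin borders shifted by 0.5 Mb and 5.75 at a threshold of 100. The difference for H3K27ac peaks on H3K9ac (3.52 points) was 0.527, 1.17 and 0.185 points in the 3 narrower width classes, 0.460 with reciprocal overlap, 7.53 merged and 2.61 with shifted borders. For RNA pol II (1.005 points) it was 0.0635 and 0.289 points in the 2 narrowest classes, 2.20 in the widest, 0.0199 reciprocal, 2.02 merged and 0.477 shifted. For H3K9me3 (-0.0836 points) it was -0.145 merged, -0.0217 reciprocal and -0.0293 (-0.0577 to 0.0180) against the middle class of bins. The cause was not tested.

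A threshold of 100 gave 117 bins with 15019 H3K27ac peaks before weaning, and 140 gave 33 bins with 5435, whereas merging left 4036 peaks in the same bins. Before weaning, the density ratio of H3K9ac was 6.21 at 100, 7.53 at 140, 6.46 merged and 6.63 with shifted borders. That of RNA pol II was 5.63 at 100 and 6.25 shifted. For H3K27ac after weaning it was 6.11 at 140, 5.39 merged and 6.12 shifted. H3K9me3 was more sensitive, with 0.543 before and 0.687 after weaning at 100, 0.260 and 0.591 at 140, and 0.486 and 0.642 without the 2 bins with the most H3K9me3, a choice made after seeing the data that also gave 0.499 for RNA pol II after weaning. The median width, hotspots minus elsewhere, was -66 bp for H3K9me3 before weaning at a threshold of 140. Width differences whose intervals included 0 also took the other sign under 5 alternatives. That of RNA pol II before weaning, -1 bp, was 1.5 bp with shifted borders, 1 bp at 100 and 20.5 bp merged, that of RNA pol II after weaning, -72 bp, was 10.5 bp shifted, and that of H3K9me3 after weaning, 7 bp, was -15 bp at 100. With merging it was 328 bp for H3K27ac and 26 bp for H3K9ac before weaning, and after weaning it was 70 bp for H3K27ac, with RNA pol II at -132 bp.

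By covered length, the ratios after to before weaning were 0.0977 for H3K9ac and 0.302 for H3K27ac in hotspots, and 0.135, 0.310, 0.474 (RNA pol II) and 1.61 (H3K9me3) elsewhere. Without the 2 autosomal bins with the most RNA pol II peaks after weaning (on chromosome 17), also chosen after seeing the data, the ratios elsewhere were 0.320 for RNA pol II and 1.90 for H3K9me3. With stitching at 5 kb, the share of peaks in clusters of 10 or more, hotspots minus elsewhere, was 18.8 points before and 7.22 after weaning, and 32 such clusters started in hotspots after weaning. The distance of peaks to gene starts was not run, since it needs an annotation of this assembly. No paired analysis was possible because each group holds 1 library. Read depth was not used here, and a peak missing from a list may be a site below the caller's threshold, and the smallest counts, 14 RNA pol II peaks after weaning and 45 H3K9me3 peaks before weaning, limit what can be read from single bins.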
